A study of Brachypodium distachyon with 24 samples.

Results

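Transcripts of 4 circadian clock genes, LHY (Bradi3g16515), TOC1 (Bradi3g48880), GI (Bradi2g05226) and ELF3 (Bradi2g14290), were followed in leaves of the grass Brachypodium distachyon. They were chosen by identifier, and are 4 of the 32439 genes in the deposited table. The study pairs Bradi3g16515 with Arabidopsis LATE ELONGATED HYPOCOTYL. The names of the other 3 came with the list of identifiers and were not checked against an annotation, since 0 of the 31335 genes in the reference table shared an identifier with the deposited table.

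The plant clock is a loop of genes whose proteins switch one another off at different times of day. In Arabidopsis, LHY is a MYB transcription factor made around dawn that represses evening genes, and TOC1 is a pseudo-response regulator made towards dusk that represses LHY in turn. GI is a large protein of the late day that stabilises the F-box protein ZEITLUPE and acts in flowering by day length, and ELF3 is the scaffold of the evening complex, a nighttime repressor. A leaf sampled once gives 1 point of each daily cycle.

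Leaves were taken for RNA-seq from plants of 2 inbred accessions, Bd21 and Bd3-1, and from F1 hybrids made with Bd21 as pollen donor on Bd3-1. Control plants were held at 85% of field capacity, the water a pot retains after draining. Drought plants were brought from day 33 after sowing to 55% within 6 days, and all plants grew in 12 h of light and 12 h of dark. The 24 libraries, 1 per plant, were from 3 Bd21 control, 3 Bd21 drought, 5 Bd3-1 control, 3 Bd3-1 drought, 5 F1 control and 5 F1 drought plants.

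In the main experiment of the study leaves were cut in a midday window, 6 to 7.5 h after lights-on. The time of each plant within it was not given in the sources used here. For the F1 plants the paper states no separate harvest window. The F1 plants were dried down in an experiment of their own, to which 2 of the 5 Bd3-1 control plants also belong, and the labels do not say which. Generation and experiment therefore cannot be told apart. Every contrast, spread or correlation that uses the Bd3-1 control group holds plants of both experiments. Total counts were between 6905973 and 42354206 per library. The drought labels were checked with Bradi1g51770, a LEA (late embryogenesis abundant) gene, which rose by 4.35, 5.39 and 5.81 on the log2 scale in Bd21, Bd3-1 and the F1 hybrid (adjusted p = 0.0463, 0.000637 and 1.73e-05). Leaf cell types were not checked, for want of an annotation, and in bulk leaves fewer cells of a type and less RNA per cell cannot be told apart.

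Levels are given as CPM, counts scaled to a common library size with edgeR's composition factors (TMM), and they compare plants for 1 gene, not genes with each other, because transcript lengths were not used. Fold changes are log2 values from edgeR's quasi-likelihood test with their standard error (SE). P-values were adjusted over all 22629 genes tested, which included all 4 clock genes, and a gene was called at an adjusted p under 0.05. The threshold was 0.1 for G × E and for the drought response of the F1 hybrid against the mean response of its parents.

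ELF3 was the clock gene that differed between groups. It fell with drought in the F1 hybrid, and it was higher in Bd3-1 than in Bd21 under control conditions. LHY, TOC1 and GI passed the threshold in no contrast of total level. What LHY and TOC1 showed instead was a wide spread between plants of the same group, in opposite directions.

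LHY, the dawn gene, varied most. In control plants it was at 17.0, 18.4 and 25.3 CPM in Bd21. In Bd3-1 it was at 50.6, 19.9, 51.4, 15.3 and 20.0 CPM, and in the F1 hybrid at 41.2, 25.5, 25.9, 26.6 and 40.2 CPM. The control values overlapped across the 3 genotypes, with pairs of high plants in Bd3-1 and in the F1 hybrid.

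Under drought LHY was at 21.9, 15.1 and 39.2 CPM in Bd21, and at 34.2, 12.0 and 61.5 CPM in Bd3-1. In the droughted F1 hybrid it was at 9.21, 11.1, 37.9, 1.67 and 11.3 CPM. Of those 5 plants, 4 lay below all F1 control plants and plant 3 lay among them. The lowest value of the series, 1.67 CPM in F1 drought plant 4, rested on 24 counts, and the highest, 61.5 CPM in Bd3-1 drought plant 3, was 36.8 times as large.

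By group mean, LHY ran from 35.9 CPM ± 24.8 (SD, n = 3) in Bd3-1 drought through F1 control (31.9 ± 8.08, n = 5), Bd3-1 control (31.4 ± 17.97, n = 5), Bd21 drought (25.4 ± 12.4, n = 3) and Bd21 control (20.25 ± 4.45, n = 3) to F1 drought (14.2 ± 13.8, n = 5). Neighbours in that order overlapped throughout.

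TOC1, the evening repressor of LHY in Arabidopsis, was at 149, 141 and 99.6 CPM in Bd21 control plants. In Bd3-1 control plants it was at 98.5, 148, 103, 129 and 178 CPM, and in F1 control plants at 58.3, 167, 93.9, 110 and 50.8 CPM. F1 control plants 1 and 5, which had the most LHY of their group, had the least TOC1. These libraries also had the lowest composition factors of the series, 0.663 and 0.780.

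With drought TOC1 was at 136, 157 and 96.3 CPM in Bd21, and at 128, 214 and 102 CPM in Bd3-1. The F1 drought plants had 143, 140, 92.4, 145 and 83.98 CPM. Every drought group overlapped its control group. Group means ran from 148 CPM ± 58.7 (SD, n = 3) in Bd3-1 drought, through 131 in Bd3-1 control, 129.9 in Bd21 control, 129.8 in Bd21 drought and 121 in F1 drought, to 96.1 ± 46.7 (n = 5) in F1 control, again with neighbours overlapping.

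GI, the late-day gene, was the least variable of the set, at 465 to 779 CPM over all 24 plants. Its group means were 714 CPM ± 44.3 (SD, n = 5) in F1 control, 649.8 ± 77.3 (n = 3) in Bd3-1 drought, 649.6 ± 47.7 (n = 5) in Bd3-1 control, 645 ± 25.6 (n = 3) in Bd21 control, 615 ± 49.8 (n = 3) in Bd21 drought and 590 ± 72.7 (n = 5) in F1 drought. Neighbours in that order overlapped. F1 control and F1 drought, the ends of it, did not: the F1 control plants had at least 668 CPM and the F1 drought plants at most 644.5, a separation seen in 10.5% of all genes. With library totals alone the GI change in the F1 hybrid was 0.04, in place of -0.28.

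ELF3, the evening complex scaffold, was at 65.5, 74.4 and 69.9 CPM in Bd21 control plants. In Bd3-1 control plants it was at 123, 100.4, 106, 136 and 101 CPM, and in F1 control plants at 126, 101, 99.7, 95.5 and 129 CPM. All Bd3-1 and F1 control plants were above all Bd21 control plants. For Bd3-1 against Bd21 in control, groups did not overlap in 10.3% of all genes. That share was not counted for the F1 hybrid against Bd21.

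Under drought ELF3 was at 64.2, 87.8 and 76.2 CPM in Bd21, and at 85.3, 98.0 and 114 CPM in Bd3-1. In the F1 hybrid it was at 74.5, 74.9, 90.3, 62.9 and 68.2 CPM. The droughted F1 plants lay with the Bd21 plants rather than with the F1 control plants. Group means ran from 114 CPM in Bd3-1 control through 110.3 in F1 control, 98.9 in Bd3-1 drought, 76.07 in Bd21 drought and 74.2 in F1 drought to 69.95 in Bd21 control, and the SD was between 4.43 and 16.1 CPM. Neighbours in that order overlapped too.

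**Figure D1:**
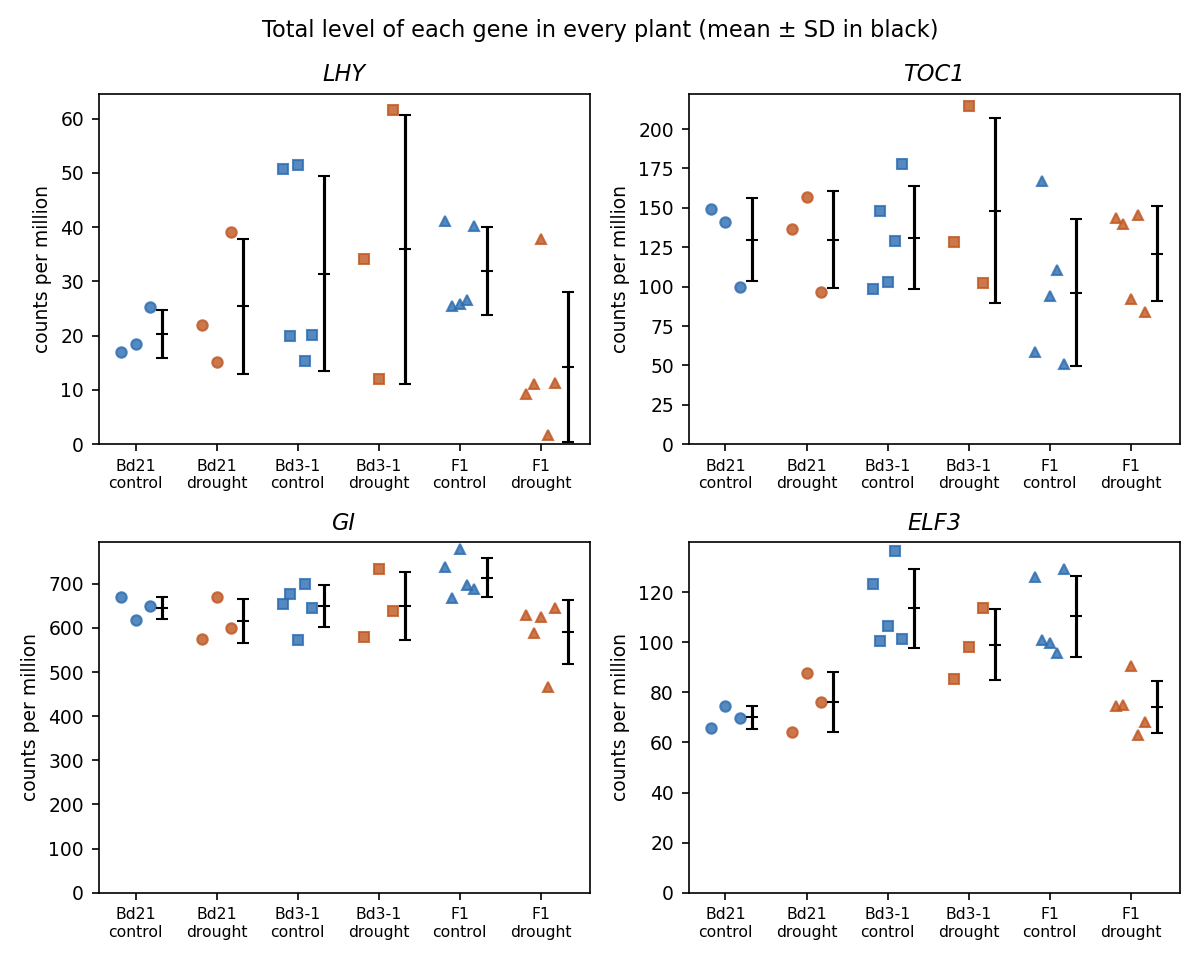
Level of LHY, TOC1, GI and ELF3 in every plant, in CPM from 0 on a scale of its own for each gene. Circles are Bd21, squares Bd3-1 and triangles the F1 hybrid, blue is control and orange drought, and black bars give the mean ± SD of 3 or 5 plants. LHY spans 1.67 to 61.5 CPM and GI 465 to 779 CPM, and the F1 drought plants of ELF3, at most 90.3 CPM, lie below all F1 control plants.

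The first comparison asked whether drought changed the clock genes. In the F1 hybrid ELF3 fell by 0.57 on the log2 scale (SE 0.14, adjusted p = 0.00669), from 110.3 CPM ± 16.1 to 74.2 ± 10.3 (SD, n = 5 each). This was 1 of the 4 clock genes, where 14.9% of all genes tested were called, and 7.31% of all genes tested were called as lower. The lowest F1 control plant had 95.5 CPM and the highest F1 drought plant 90.3 CPM. Such separation was seen in 10.5% of all genes.

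The ELF3 change in the F1 hybrid depended on scaling. The composition factor was between 0.663 and 1.00 in F1 control libraries and between 0.943 and 1.13 in F1 drought libraries. With library totals alone, an alternative chosen after seeing the data, the ELF3 change was -0.24 (adjusted p = 0.182), and the median change over all genes moved from 0.04 to 0.36. Relative to that median ELF3 was at -0.61 and -0.60 log2 units under these scalings. Subtracting the median largely repeats what the composition factors do, so the match is no separate check of the scaling. The other clock genes matched in the same way, with GI at -0.31 and -0.32, LHY at -1.195 and -1.228, and TOC1 at 0.29 and 0.23.

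LHY differed by -1.16 in the F1 hybrid with drought (SE 0.52, adjusted p = 0.150), GI by -0.28 (SE 0.12, adjusted p = 0.151) and TOC1 by 0.33 (SE 0.28, adjusted p = 0.499). None was called. Without F1 drought plant 3, the one with 37.9 CPM, the LHY change was -1.93 (adjusted p = 0.00815), and with a replicate block and all plants kept it was -1.63 (adjusted p = 0.0124), although replicate numbers did not pair the plants. For GI, DESeq2 gave -0.29 (adjusted p = 0.0296).

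In the parents no clock gene was called with drought, where 0.0972% of all genes were called in Bd21 and 0.720% in Bd3-1. ELF3 changed by 0.12 (SE 0.18) in Bd21 and by -0.20 (SE 0.16) in Bd3-1. LHY changed by 0.33 (SE 0.67) and 0.19 (SE 0.59), with standard errors larger than the changes themselves. TOC1 changed by 0.00 (SE 0.36) and 0.18 (SE 0.32), and GI by -0.07 (SE 0.16) and 0.00 (SE 0.14).

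Whether the drought response itself differed was tested directly. Between the parents (G × E) 0 of 22629 genes were called by edgeR, 770 had an unadjusted p under 0.05, and DESeq2 called 8. For the clock genes the difference in response was between -0.32 (ELF3, SE 0.24) and 0.18 (TOC1, SE 0.48), with adjusted p = 0.9999 for each of them. Between the F1 hybrid and the mean of the parents, the response of ELF3 differed by -0.53 (SE 0.18, adjusted p = 0.571) and that of LHY by -1.42 (SE 0.69, adjusted p = 0.671). Neither was called, where 0.0133% of all genes were. The ELF3 response in the F1 hybrid is therefore not shown to differ from that of its parents.

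The second comparison asked whether the accessions differed. Under control conditions ELF3 was higher in Bd3-1 by 0.70 (SE 0.16, adjusted p = 0.0141), at 114 CPM ± 15.7 (SD, n = 5) against 69.95 ± 4.43 (n = 3). It was the 1 clock gene of 4 to pass, where 2.51% of all genes were called and 0.835% were called as higher. The groups did not overlap, a pattern seen in 10.3% of all genes. Of these Bd3-1 plants 2 came from the F1 experiment, and the part of experiment in the difference was not tested. The call was lost when the fit held only the groups compared (adjusted p = 0.0531), and without Bd21 control plant 1 (adjusted p = 0.0892), Bd21 control plant 3 (0.0668) or Bd3-1 control plant 4 (0.0552), while the difference stayed between 0.61 and 0.75.

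Under drought the ELF3 difference was 0.38 (SE 0.18, adjusted p = 0.491), where 1.86% of all genes were called, and the groups overlapped. Averaged over both conditions, a contrast chosen after seeing the data, ELF3 was higher in Bd3-1 by 0.54 (SE 0.12, adjusted p = 0.00616), where 4.75% of all genes were called, and that call held with each of the 14 parental libraries left out (0.48 to 0.60). LHY was at 0.63 (SE 0.61) under control conditions and 0.49 (SE 0.67) under drought. TOC1 was at 0.02 and 0.19, and GI at 0.01 and 0.08, so that these 3 genes differed between accessions by about their standard error or less.

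Against the mean of its parents the F1 hybrid had no called clock gene, where 1.27% of all genes were called in control plants and 1.85% in drought plants. Under control conditions ELF3 stood at 0.31 (SE 0.12, adjusted p = 0.198) and TOC1 at -0.44 (SE 0.26, adjusted p = 0.394). In drought LHY stood at -1.08 (SE 0.51, adjusted p = 0.337). Without F1 drought plant 3 that LHY difference was -1.86 (adjusted p = 0.0459).

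**Figure D2:**
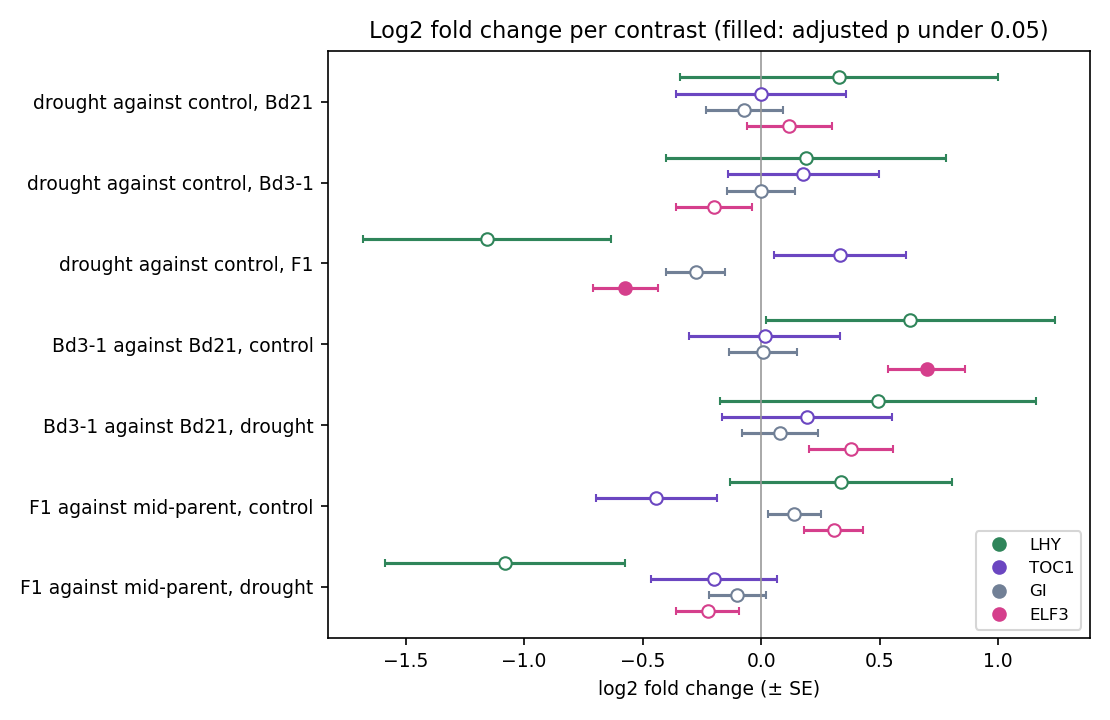
Log2 fold change of each clock gene in 7 contrasts, with bars of ± 1 SE. Filled points passed an adjusted p under 0.05. The 2 filled points are ELF3, at -0.57 for drought in the F1 hybrid and 0.70 for Bd3-1 against Bd21 in control plants, and the bars of LHY are the widest in every contrast.

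Spread between plants of one group set the clock genes apart from each other. The residual SD, taken on log2(CPM + 1) after removing group means, was 0.89 for LHY and 0.47 for TOC1, against 0.19 for ELF3 and 0.13 for GI. Among the 1000 genes nearest in mean level, whose median SD was 0.34, the SD of LHY was at the 97.4th percentile. TOC1 was at the 84th percentile, ELF3 at the 20.5th and GI at the 3.6th. With groups pooled, LHY and TOC1 were thus more variable than most genes of like level, and GI was less variable than nearly all of them. By group the SD of LHY ran from 0.29 in Bd21 control and 0.34 in F1 control to 1.37 in F1 drought. That of TOC1 ran from 0.31 in Bd21 control to 0.69 in F1 control. Leaving out each plant in turn gave a residual SD of 0.73 to 0.91 for LHY and 0.42 to 0.49 for TOC1.

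LHY and TOC1 varied in opposite directions. In 23 of 24 plants LHY and TOC1 lay on opposite sides of their group means. Across the 24 plants, after removing group means, Pearson's r was -0.66 (permutation test within groups, two-sided p = 7e-05, adjusted over the 6 gene pairs 0.00042). Spearman's rho was -0.77 (permutation p = 0.00014, adjusted 0.00084). The relation was negative in each of the 6 groups.

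Leaving out the plants farthest from the median of LHY, F1 drought plants 3 and 4, gave r = -0.73. Within the parental plants r was -0.90 (n = 14) and within the F1 plants -0.49 (n = 10), so the sign was the same in both. Leaving out each plant in turn gave r between -0.72 and -0.60, and library totals alone gave -0.53 (adjusted p = 0.0069, permutation test). Ranked by r to LHY among 21116 genes with a mean of at least 10 counts, TOC1 was the 53rd lowest. By r to TOC1, LHY was number 317 from the lowest among as many genes.

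**Figure D3:**
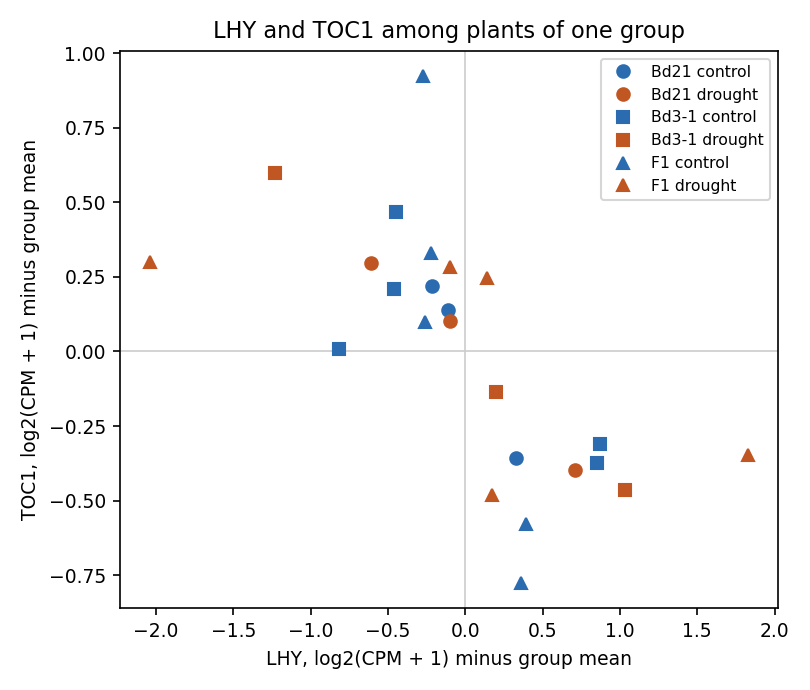
TOC1 against LHY in 24 plants, each as log2(CPM + 1) minus the mean of its group. Blue is control and orange drought, with circles for Bd21, squares for Bd3-1 and triangles for the F1 hybrid. The points run from upper left to lower right (r = -0.66), and 23 of 24 lie on opposite sides of the group means.

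The other 5 pairs of clock genes did not pass the adjusted threshold. ELF3 had r = 0.42 with LHY (permutation p = 0.0783), -0.47 with TOC1 (p = 0.0521) and 0.41 with GI (p = 0.0896), each with adjusted p = 0.134. The adjusted p of rho was 0.190 for all 3 of them. LHY and GI had r = 0.11 (permutation p = 0.721), and TOC1 and GI had r = 0.00 (p = 0.999). The LHY and GI value covered opposite values in the parents (-0.67) and the F1 plants (0.72), and without F1 drought plants 3 and 4 it was -0.53. LHY with ELF3 had r = 0.03 in the parents and 0.78 in the F1 plants, and TOC1 with GI had 0.52 and -0.36. The values were -0.23 and -0.67 for TOC1 with ELF3, and 0.47 and 0.36 for GI with ELF3. Differences between parents and F1 plants were not tested for any pair.

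Library composition moved with these deviations. After removing group means, the composition factor had r = 0.70 with TOC1, -0.42 with LHY, -0.68 with ELF3 and -0.28 with GI over the 24 plants. The share of counts held by the 10 most abundant genes of a library, 7.02% to 16.3%, had r = -0.71 with TOC1, 0.52 with LHY, 0.69 with ELF3 and 0.16 with GI. Correlation with total counts was between -0.12 and 0.22. The part of composition in the clock gene relations was not tested beyond the rescaling given above.

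The study lists 26 genes shared by the circadian modules of its coexpression networks, LHY and TOC1 among them. That list was built from plants of the main experiment, from which 12 of the parental libraries here also come, so for the parents it is not independent. Of the other 24 genes, none was called with drought in either parent, and 3 were called higher and 1 lower with drought in the F1 hybrid, where 14.9% of all genes were called. Bradi1g69070 rose by 0.97 and Bradi2g41590 by 0.82 on the log2 scale, and Bradi2g50850 fell by 0.91 (adjusted p = 0.0365, 0.00388 and 0.0156). The median change of the 24 genes was -0.12, beside 0.04 over all genes. The share called was thus near that of all genes. The count of higher genes was 1 without F1 control plant 1, 2 or 3, and 2 without F1 control plant 4 or F1 drought plant 2, 3, 4 or 5. No gene was called lower without F1 drought plant 2 or with library totals alone.

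Between plants the list fell into opposed sets. Of the 24 genes, 11 had a positive r with LHY and 13 a positive r with TOC1, and in 24 of 24 the sign with LHY was opposite to the sign with TOC1. Among all other genes 77.8% had opposite signs. In the F1 plants, whose libraries were not used to build the list, 22 of 24 had opposite signs, beside 74.5% of all other genes.

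In size, r was at least 0.5 in either direction for 17 of the 24 genes with TOC1 (12.5% of all genes) and for 12 with LHY (7.34% of all genes). With ELF3 and with GI this held for 2 genes each (14.5% and 9.55% of all genes). In F1 plants alone the median size of r with TOC1 was 0.64, beside 0.40 over all genes, and with LHY it was 0.35 beside 0.38. With ELF3 it was 0.60 beside 0.37 in these plants, close to TOC1, and with GI 0.17 beside 0.37. These are correlations across plants that share libraries and composition factors, and are given as a description.

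Some list members are transcription factors that the study pairs with Arabidopsis clock genes. Bradi1g29680, an ortholog of REVEILLE 2/7, MYB factors of the LHY family, had r = 0.72 with LHY and -0.81 with TOC1. Bradi5g19380, paired with the same Arabidopsis genes, went the other way, with r = -0.39 with LHY and 0.52 with TOC1. Bradi2g62067, paired with BROTHER OF LUX ARRHYTHMO, a relative of the DNA-binding member of the Arabidopsis evening complex, had r = -0.44 with LHY and 0.52 with TOC1.

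**Figure D4:**
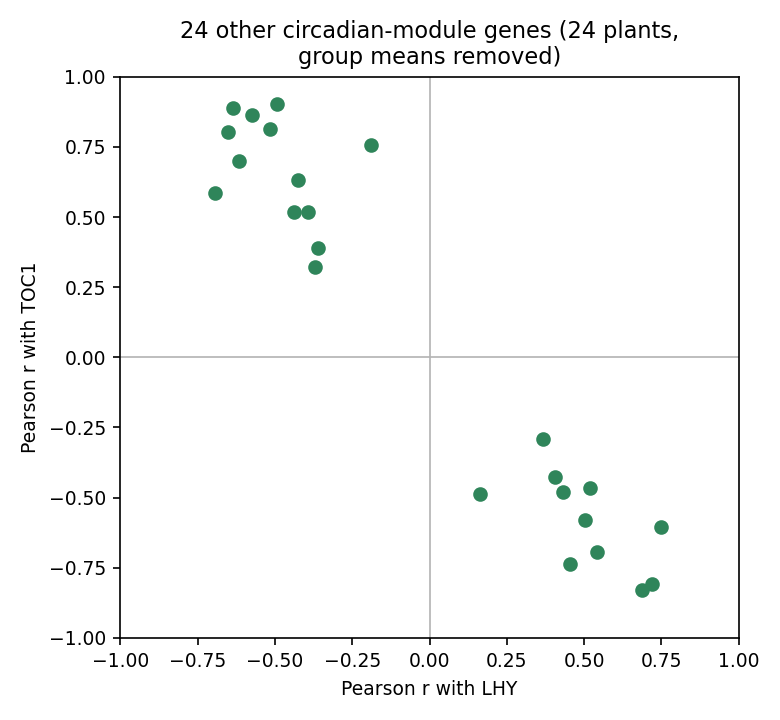
Pearson's r with TOC1 against r with LHY for the 24 other genes of the circadian module list, over 24 plants after removing group means. Each point is a gene. All 24 lie in the upper left (13 genes that vary with TOC1) or lower right quadrant (11 genes that vary with LHY).

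The genes most like each clock gene over the 24 plants were named by rank of r. For TOC1 the highest were Bradi3g45230 (0.90) and Bradi1g43220 (0.89), both on the circadian module list, and Bradi5g26023 (0.87). The lowest were Bradi5g26070 (-0.88), Bradi4g41850 (-0.86) and Bradi3g51757 (-0.86), the last of which the study pairs with Arabidopsis REVEILLE 6. The 3 highest of LHY, GI and ELF3 held no gene of that list.

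For LHY the highest were Bradi3g07150 (0.87), Bradi1g65910 (0.82) and Bradi3g13140 (0.81), and the lowest Bradi1g07495 (-0.80), Bradi4g44200 (-0.79) and Bradi3g50080 (-0.75). For GI they were Bradi1g52080 (0.83), Bradi1g66640 (0.80) and Bradi4g38037 (0.78), and Bradi3g17920 (-0.81), Bradi1g72440 (-0.80) and Bradi2g54570 (-0.78). For ELF3 they were Bradi4g30610 (0.86), Bradi3g03160 (0.85) and Bradi2g45147 (0.84), and Bradi4g34150 (-0.86), Bradi3g34860 (-0.85) and Bradi1g30960 (-0.85). The identifiers in these 3 sets carry no gene name here.

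The F1 hybrid carries both alleles in one nucleus, and each gene has separate counts for its Bd21 and its Bd3-1 copy. For LHY and TOC1 these columns were equal in 24 of 24 libraries, so their alleles could not be told apart. For GI they were nearly so: the Bd3-1 column held 43.2% to 50.0% of GI counts in Bd21 plants, where it should hold none, and 53.2% to 56.4% in Bd3-1 plants, where it should hold all. In F1 plants it held 48.6% to 52.4%. The GI share thus cannot be read as an allele ratio.

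ELF3 was the exception. The Bd3-1 column held 0% of ELF3 counts in the 6 Bd21 plants and 100% in the 8 Bd3-1 plants. ELF3 was among 3403 genes whose alleles were distinguishable, defined by an opposing allele under 20% and an own-allele count above 1 in every parental library.

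In F1 control plants 1 to 5 the Bd3-1 allele gave 60.1%, 68.6%, 60.0%, 49.1% and 73.9% of ELF3 counts. In F1 drought plants 1 to 5 it gave 56.3%, 64.5%, 73.6%, 37.8% and 49.0%. The share was above 50% in 4 of 5 control and 3 of 5 drought plants. With every estimated count taken as 1 read, the 95% Wilson interval was 72.2% to 75.6% in the highest plant and 34.7% to 41.0% in the lowest. The allele counts are estimates, however, at 561.6 and 341.4 in the lowest plant, and include reads that do not tell the alleles apart. The intervals are therefore too narrow for counting error, and its part in the differences between plants was not tested.

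As a log2 ratio of Bd3-1 to Bd21 with 1 count added, ELF3 was at 0.75 ± 0.59 (SD, n = 5) in control and 0.39 ± 0.84 (n = 5) in drought. Exact two-sided sign-flip permutation tests against 0 gave p = 0.125 and 0.375, and 5 plants cannot reach a threshold of 0.05, since the smallest p they allow is 0.0625. Over all 10 F1 plants the ratio was 0.57 ± 0.71, above 0 in 7 of 10 (exact sign-flip permutation p = 0.0391). The drought minus control difference was -0.36 (exact permutation p = 0.460). Leaving out F1 control plant 1, 2, 3 or 5 or F1 drought plant 1, 2 or 3 gave p = 0.0625 or 0.0781 over the remaining 9 plants (exact test).

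Over the 3403 genes the median ratio was -0.03, and ELF3 was at the 88.2nd percentile. Its plant-to-plant SD was 0.73, at the 79th percentile of 500 genes with similar counts, whose median SD was 0.45. Those genes were matched on total counts, not on reads that tell the alleles apart.

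The edgeR fit over parental and F1 allele counts compared alleles within the F1 hybrid (cis) and the excess of the parental difference over it (trans), with p-values adjusted over the 3403 genes and a threshold of 0.1. It treats both alleles of a plant as separate columns with no plant term, so the SE and p of the cis terms ignore their pairing. The exact sign-flip tests above, which keep it, gave p = 0.125 in control, 0.375 in drought and 0.0391 over all 10 F1 plants. The cis term of ELF3 was 0.77 in control (SE 0.21, adjusted p = 0.0261), where 7.85% of genes were called. It was 0.45 in drought (SE 0.21, adjusted p = 0.263), where 7.88% were called (unadjusted p = 0.0412, and 24.6% of genes had an unadjusted p under 0.1, the threshold of the study), and 0.61 averaged over conditions (SE 0.15, adjusted p = 0.00566), where 16.2% were called. In control the call was lost without F1 control plant 2 (adjusted p = 0.110) or 5 (0.204), and in drought it was gained without F1 drought plant 4 (0.0519).

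Cis by environment was -0.32 (SE 0.30, adjusted p = 0.929), where 0.0294% of genes were called, so a change of the allele difference with drought was not shown. The trans term was -0.07 (SE 0.23, adjusted p = 0.994), where 0.353% were called. Set side by side, ELF3 differed by 0.54 between the parents and by 0.61 between the alleles in the F1 hybrid, both averaged over conditions and with Bd3-1 higher.

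By allele, the Bd21 copy of ELF3 was at 40.8 CPM ± 8.49 in F1 control and 31.4 ± 6.21 in F1 drought plants (SD, n = 5 each). The Bd3-1 copy was at 69.5 ± 18.2 and 42.8 ± 16.2. Against the matching parent, the Bd21 copy had 58.4% of the parental level in control and 41.3% in drought, and the Bd3-1 copy 61.1% and 43.2%. Both copies thus had a lower mean in drought relative to the matching parent. This was not tested, nor repeated under another scaling, and most parental plants were from another experiment. For each copy the F1 control and F1 drought plants overlapped.

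**Figure D5:**
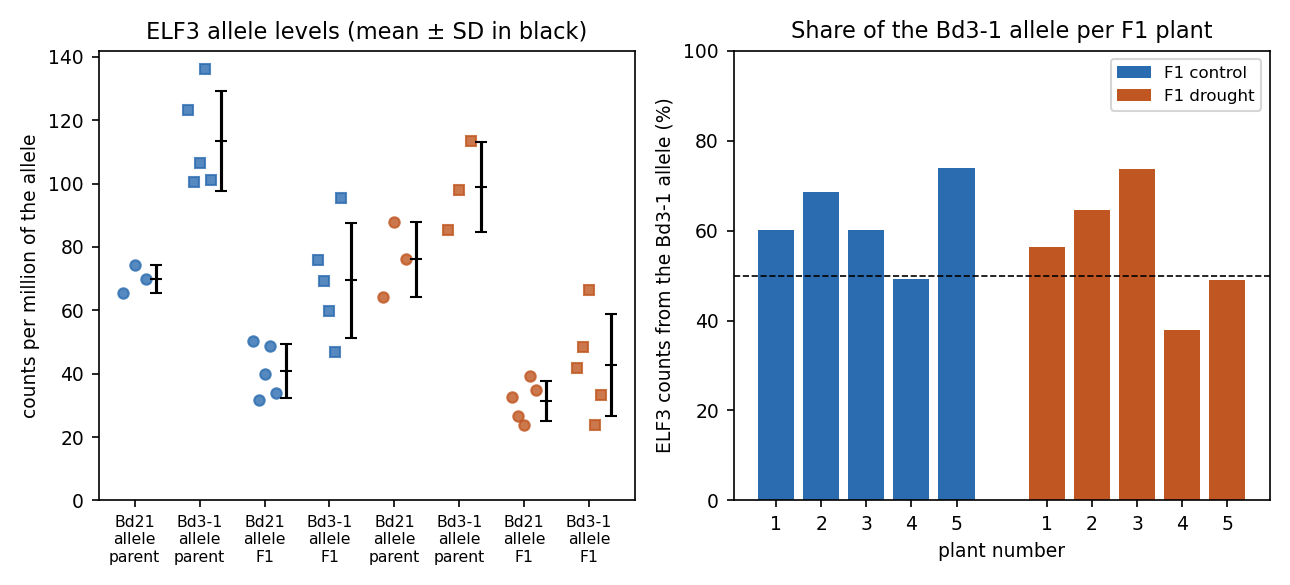
ELF3 by allele. On the left, CPM of each allele in parents and F1 plants (circles Bd21 allele, squares Bd3-1 allele, blue control, orange drought, black bars mean ± SD of 3 or 5 plants), and on the right, the percentage of ELF3 counts from the Bd3-1 allele in each F1 plant with 50% dashed. The share runs from 37.8% to 73.9%, and 7 of 10 plants are above 50%.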

How the data were processed

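The authors sequenced stranded poly(A) libraries, aligned them with bowtie to a diploid transcriptome of both accessions, and divided reads between alleles with emase. The deposited values are estimated counts, not normalized, in a column per allele and library. The submitters' processing notes list Bowtie 1.2.2, STAR 2.6.1b, GATK 4.2.5.0, Trimmomatic 0.38 and cutadapt 3.7. Columns were summed per gene and rounded, and genes with counts in more than 10 libraries were kept. Totals were fitted with a term for each of the 6 groups in edgeR 4.0.16 (TMM, quasi-likelihood, R 4.3.3), and allele counts likewise over 34 columns. SE is the fold change over the square root of F. Correlations used log2(CPM + 1), a pseudocount of 1, and 100000 permutations within groups (numpy 2.4.6, scipy 1.17.1). Alternatives were DESeq2 1.42.0, relative log expression factors, other filters and pseudocounts, only the groups compared, a replicate block and each library left out. The fits of totals and of alleles and the ranking by r were also run on simulated data, with outcomes not given here. The simulated alleles of a plant were drawn independently, so that run cannot check the pairing that the cis terms ignore.

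Genes named were the clock genes, the 3 genes highest and lowest in r for each, at most 2 that rose and 2 that fell from the circadian module list, genes the study pairs with clock genes, named after their values were seen, and 1 drought gene. The members and lists were chosen with earlier results of these data known. Replicates were compared in 39 pairs, and all differed by more than sampling noise (chi-square over its degrees of freedom, at least 17.4). The authors' other measurements were not used here.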

Additional observations from a re-analysis of the deposited data

Results flagged for a closer look

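GI in F1 drought plant 4 was far from the other 4 plants of its group, at 8.87 on the log2(CPM + 1) scale. The gap to the nearest plant was 0.717 of the whole range of 5 plants. Of 16 groups of clock gene levels and allele ratios checked in this way 1 was past the 95% limit, and chance alone passes about 1 in 20. The same plant had the lowest LHY, GI and ELF3 of all 24 libraries.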

How the results depend on the processing

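Groups held 3 to 5 plants. The lowest count of a clock gene in any plant was 24 (LHY in F1 drought plant 4), and depth as a limit was not tested. No call or direction of a clock gene changed with the filters on low counts, the stricter limit on the opposing allele, summed counts or a pseudocount of 0.5. The cause of each change below was not tested.

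With DESeq2 GI was called for drought in F1 (-0.29, adjusted p = 0.0296), and near-zero values changed sign for GI with drought in Bd3-1 (-0.010) and for Bd3-1 against Bd21 in control (GI -0.017, TOC1 -0.015). Relative log expression factors gave the same signs (-0.010, -0.018 and -0.015) and r = -0.0044 for TOC1 with GI. In a fit of only the groups compared, ELF3 for Bd3-1 against Bd21 in control lost its call at 0.70, and GI with drought in Bd3-1 was -0.016. A pseudocount of 5 gave r = -0.0011 for LHY with GI.

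Library totals alone, chosen after seeing the data, took ELF3 with drought in F1 to -0.24 with its call lost, and turned GI with drought in Bd21 (0.049) and F1 (0.041), TOC1 with drought in Bd21 (0.13), ELF3 with drought in Bd3-1 (0.0048), GI and TOC1 for Bd3-1 against Bd21 in control (-0.10 and -0.075), GI for the mean of both conditions (-0.034) and GI in F1 against mid-parent in control (-0.099). It gave r = -0.14 for LHY with GI, 0.052 for TOC1 with ELF3 and 0.63 for TOC1 with GI, the last past the threshold. With group means kept, LHY with ELF3 (0.557) and GI with ELF3 (0.556) passed and TOC1 with GI was -0.19.

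Replicate numbers did not pair the plants. Over 51 same-numbered pairs the mean correlation of deviations was -0.0052 (-0.24 to 0.22), and 5 were over 0.1. A replicate block nonetheless called LHY with drought in F1 (-1.63, adjusted p = 0.0124) and turned GI and LHY with drought in Bd3-1 (-0.021 and -0.23), and it changed no other call.

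Leaving out each plant in turn gave these ranges. With drought, LHY ran from -0.13 to 0.59 in Bd21, from -0.45 to 0.61 in Bd3-1 and from -1.93 to -0.87 in F1. TOC1 ran from -0.16 to 0.17 in Bd21 and from -0.19 to 0.39 in Bd3-1, and GI from -0.094 to 0.076 in Bd3-1. For Bd3-1 against Bd21 in control, ELF3 ran from 0.61 to 0.75, TOC1 from -0.14 to 0.12 and GI from -0.034 to 0.051. In drought LHY ran from -0.14 to 0.95, TOC1 from -0.17 to 0.40 and GI from -0.015 to 0.16, and over both conditions TOC1 from -0.078 to 0.21 and GI from -0.0029 to 0.082. G × E ran from -0.77 to 0.32 for LHY, from -0.18 to 0.39 for TOC1 and from -0.024 to 0.15 for GI. LHY in F1 against mid-parent in drought ran from -1.86 to -0.76. For ELF3 alleles, cis ran from 0.56 to 0.95 in control and from 0.15 to 0.69 in drought, trans from -0.19 to 0.081 over both conditions, from -0.25 to 0.14 in control and from -0.31 to 0.23 in drought, and trans by environment from -0.25 to 0.30. The ELF3 ratio over all F1 plants ran from 0.46 to 0.71, and the drought minus control difference of the GI ratio from -0.0060 to 0.049. Correlations ran from -0.48 to 0.31 for LHY with GI, from 0.27 to 0.57 for LHY with ELF3 and from -0.17 to 0.15 for TOC1 with GI.

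The number of genes called with drought was 22 in Bd21 and 163 in Bd3-1 in edgeR, but 220 and 726 in DESeq2, and 114 and 52 with only the groups compared. Leaving out each library in turn gave 2 to 12 in Bd21 and 32 to 321 in Bd3-1. Under the replicate block it was 13 and 83.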

Other observations

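In the 10 F1 plants the ELF3 allele ratio was set against the levels of the 4 clock genes, with condition means removed, a comparison chosen after seeing the data. With the total ELF3 level the log2 ratio had r = 0.78 (permutation p = 0.0145, adjusted over the 4 relations 0.0481) and rho = 0.85 (permutation p = 0.00425, adjusted 0.0170). Plants with more ELF3 had a larger share from the Bd3-1 allele. Without F1 drought plants 3 and 4, the farthest from the median, r was 0.59. The total holds both allele counts, so the measures share counts.

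With LHY the ratio had r = 0.78 (permutation p = 0.0240, adjusted 0.0481), but rho was 0.59 (permutation p = 0.101, adjusted 0.202), and without the same plants r was 0.32, so that the relation rests on them. With TOC1 r was -0.25 (permutation p = 0.467) and with GI 0.38 (permutation p = 0.406). The adjusted p was 0.467 for both.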
